A study of Homo sapiens with 6 samples.

Results

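The nuclear-encoded genes of the respiratory chain were followed in A549 cells, a line derived from a human lung adenocarcinoma, with and without forced expression of IL17D, a secreted cytokine of the IL-17 family. Genes were chosen by name and biotype alone: rows labelled as protein coding whose symbol begins with NDUF, UQCR or COX4 to COX8, or is SDHA, SDHB, SDHC or SDHD. The rule found 78 of the 58735 genes listed, of which 48 were assigned to complex I, 4 to complex II, 9 to complex III and 17 to complex IV. The control group was A549 transduced with the empty lentiviral vector pCCL, and the IL17D group was A549 transduced with the same vector carrying the IL17D reading frame. In both groups the vector drove expression from the human PGK promoter and also carried GFP behind an internal ribosome entry site, so the groups share the transduction, the vector backbone and the culture in RPMI1640 with 10% serum. Each group had 3 libraries of total RNA. The labels do not say whether the 3 came from separate transductions or cultures, and p-values then measure only the spread between these libraries, which may be technical.

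The mitochondrial respiratory chain passes electrons from NADH and succinate to oxygen and pumps protons across the inner membrane, and ATP synthase uses the resulting gradient. Complex I (NADH dehydrogenase) and complex II (succinate dehydrogenase) feed electrons into ubiquinone, complex III (cytochrome bc1) passes them on to cytochrome c, and complex IV (cytochrome c oxidase) reduces oxygen. Complexes I, III and IV are built from subunits of both genomes: the mitochondrial genome codes for catalytic core subunits, and the nuclear genome codes for the other core subunits and for all accessory subunits. The name rule also takes in the NDUFAF genes, whose products help to assemble complex I without remaining in it, and NDUFA4, which was named as a subunit of complex I but is found in complex IV.

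The libraries held 14319398 to 16521021 counts on genes, and a count of 0 allows up to 3 counts, or 0.182 to 0.210 CPM, a limit that covers counting error only. CPM are a gene's counts relative to the scaled total of its library, the usual unit for such tables. IL17D itself was counted 24, 18 and 34 times in the control libraries and 31274, 32155 and 26772 times in the IL17D libraries, so every library matched its label. The keratins KRT8 and KRT18 of A549 cells were at 7648 and 3591 CPM in control cells and at 7357 and 3556 CPM in IL17D cells. The epithelial markers KRT19 and EPCAM were nearly absent, with 3 to 11 and 9 to 21 counts per library. CDH1, the epithelial cadherin, fell from 43.4 to 35.7 CPM (log2 fold change −0.28, edgeR quasi-likelihood adjusted p = 0.0306), a call that was lost with DESeq2 (adjusted p = 0.0826) and without control replicate 2 or 3 or IL17D replicate 1 or 2 (0.0765 to 0.269). Of 7 markers of other cell types, PTPRC and CD3E had no count in any library, PECAM1 and SFTPC had at most 3, CD79A had 1 to 9, CD14 had 8 to 20, and COL1A1 was at 23.3 CPM in control and 21.0 CPM in IL17D cells.

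Regulatory sequence is shown for 4 genes of different complexes, because promoter sequence is a feature that the name rule did not use. RefSeq start sites (GRCh38.p14) were available in the promoter table for 64 of the 78 genes, and the window searched ran from 250 bases before the start to 50 bases after it. Letters of 3 factors known to bind respiratory chain promoters were searched on both strands: GCGCA, then any base, then GCGC for NRF1, AAGATGGC for YY1 and CCGGAAG for ETS-family factors such as GABP. Capitals mark these letters, and each sequence is given 5′ to 3′ on the strand of the gene. SDHA (GRCh38.p14 chr5:218070-218349, plus strand) held the NRF1 letters 4 times. NDUFB4 (chr3:120596086-120596385, plus strand) held them 3 times. UQCRC1 (chr3:48609597-48609896, minus strand) held 1 NRF1 match before the start and 1 YY1 match after it. COX4I1 (chr16:85799445-85799724, plus strand) held 1 ETS match just after the start. The stretches of SDHA and COX4I1 are shown up to 30 bases after the start and the other two up to 50 bases.
SDHA: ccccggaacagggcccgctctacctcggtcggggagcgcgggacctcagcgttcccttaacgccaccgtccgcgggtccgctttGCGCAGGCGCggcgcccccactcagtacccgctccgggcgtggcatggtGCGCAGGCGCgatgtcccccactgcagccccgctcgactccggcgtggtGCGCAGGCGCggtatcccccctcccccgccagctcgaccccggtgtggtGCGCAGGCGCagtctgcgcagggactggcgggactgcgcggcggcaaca
NDUFB4: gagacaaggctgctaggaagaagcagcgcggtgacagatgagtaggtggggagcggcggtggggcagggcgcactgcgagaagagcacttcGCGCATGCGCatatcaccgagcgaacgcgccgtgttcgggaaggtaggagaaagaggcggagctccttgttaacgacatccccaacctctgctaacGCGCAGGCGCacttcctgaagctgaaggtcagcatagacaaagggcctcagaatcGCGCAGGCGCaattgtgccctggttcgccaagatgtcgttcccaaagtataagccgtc
UQCRC1: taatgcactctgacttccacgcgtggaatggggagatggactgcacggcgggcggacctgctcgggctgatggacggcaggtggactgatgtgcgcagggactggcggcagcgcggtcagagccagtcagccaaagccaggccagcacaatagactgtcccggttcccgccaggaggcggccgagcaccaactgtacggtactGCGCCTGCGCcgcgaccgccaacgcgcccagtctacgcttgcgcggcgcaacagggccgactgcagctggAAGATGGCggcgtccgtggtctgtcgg
COX4I1: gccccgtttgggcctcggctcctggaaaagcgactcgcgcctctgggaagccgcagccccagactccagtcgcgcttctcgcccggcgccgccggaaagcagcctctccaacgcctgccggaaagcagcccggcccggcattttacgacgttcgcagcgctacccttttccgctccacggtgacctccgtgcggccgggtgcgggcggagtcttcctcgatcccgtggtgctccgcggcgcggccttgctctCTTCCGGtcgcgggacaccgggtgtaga

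In SDHA the 4 NRF1 matches began at bases −166, −117, −68 and −19, counted from the start site. In NDUFB4 they began at −159, −63 and −8. Among the 59 promoters of genes that were also tested for expression, 13 held the NRF1 letters (22%), against 5.78% of all 35116 promoter windows and 9.65% of the 14856 windows of tested protein-coding genes. The YY1 letters were in 8 (13.6%, against 2.89% and 4.64%) and the ETS letters in 16 (27.1%, against 10.3% and 16.3%). For the respiratory chain genes 1 window per gene was used. The other shares count every window, and a gene can have more than 1 there, so the units differ. At least 1 of the 3 was in 31 of the 59 promoters and 28 had none. The only matches that overlapped were 2 of NRF1 in NDUFA8, and no match overlapped one of another motif.

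By complex, NRF1 letters were in 7 of 39 promoters of complex I, 2 of 3 of complex II, 4 of 7 of complex III and 0 of 10 of complex IV, whereas ETS letters were in 5 of the 10 promoters of complex IV. All 8 YY1 matches (NDUFA3, NDUFA6, NDUFA7, NDUFA9, NDUFS4, NDUFS7, SDHB and UQCRC1) lay on the strand of the gene and began 11 to 26 bases after the start site. Each held the annotated start codon ATG within AAGATGGC. Of the 1056 YY1 matches in all windows, 49.5% lay after the start site. Strand and start codon were not counted for matches of other genes, so whether other genes share this placing was not tested. These matches describe letters in a window and were not set against any binding data.

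The question of the comparison was whether the RNA of these genes differed between IL17D and control cells. No gene of the 4 complexes passed the test in either direction, although 72 of the 78 could be tested. Summed over all 78 genes, the level was 4833, 4719 and 4713 CPM in the control libraries and 4737, 4684 and 4842 CPM in the IL17D libraries. The groups overlapped, and their means of 4755 ± 67.6 and 4754 ± 80.1 CPM (SD, n = 3) differed by −0.011%.

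By edgeR's quasi-likelihood method, 1.58% of all 15754 tested genes reached an adjusted p under 0.05, 0.673% higher and 0.908% lower in IL17D cells. Among the respiratory chain genes the count was 0 of 72 with edgeR, with DESeq2 and with limma voom, and the lowest adjusted p was 0.160, for NDUFB3. At an unadjusted p under 0.05, 5 genes were higher (5.59% of all tested genes were) and 2 were lower (5.99% of all), together 9.72% of the 72 against 11.6% of all tested genes. With a library left out, these counts were 3 higher without control replicate 2, 1 higher without IL17D replicate 3 and 4 to 6 higher without another library, and 0 or 1 lower whichever of the 6 was left out. The libraries of the groups did not overlap for 6 genes that were higher (7.48% of all tested genes) and 3 that were lower (8.31% of all), together 12.5% of the 72 against 15.8% of all. Both shares are near the background. The log2 fold change was above 0 for 35 of the 72 and below it for 37 (49.9% of all tested genes were above 0), with a median of −0.0043, against −0.00044 for all tested genes, and quartiles of −0.042 and 0.049.

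**Figure D1:**
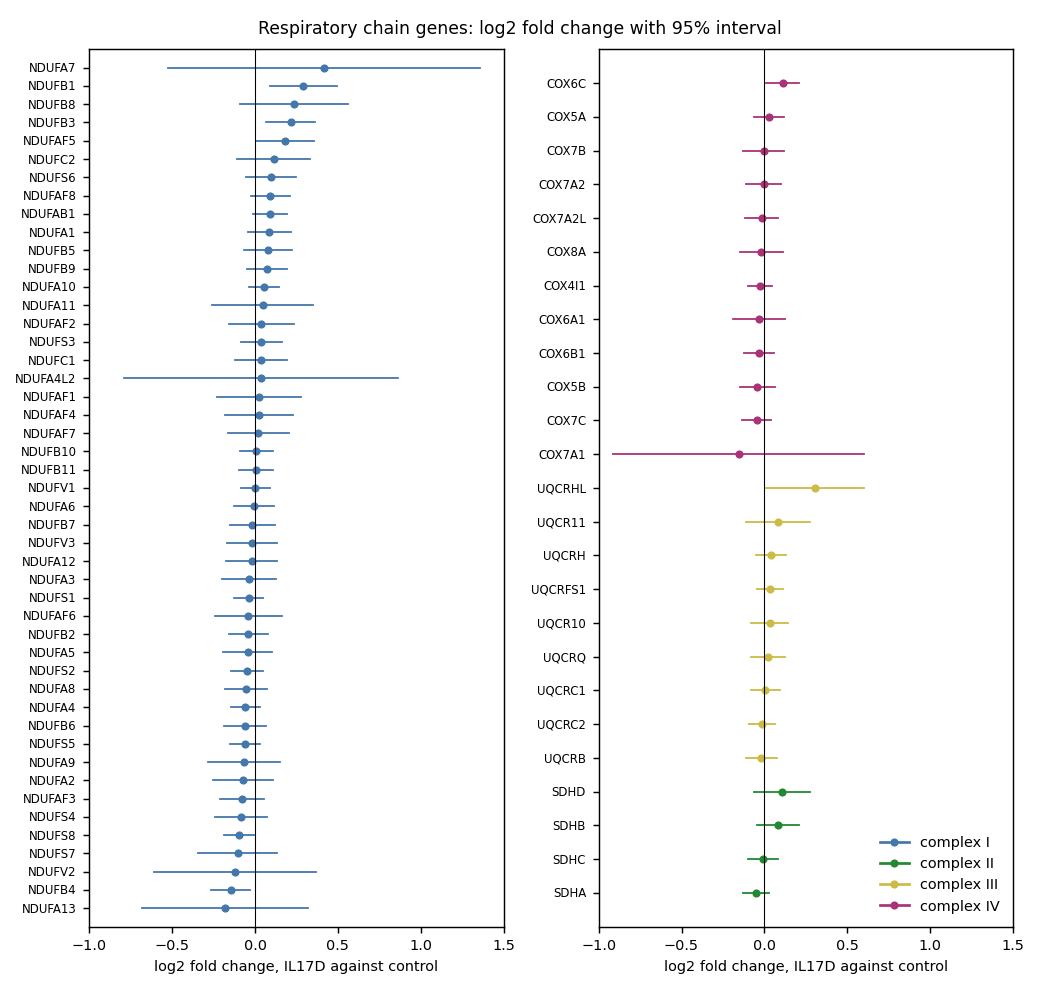
Fold change of the 72 tested respiratory chain genes. Points are log2 fold changes of IL17D against control libraries from edgeR and lines are their 95% intervals, coloured by complex; the estimates run from −0.18 for NDUFA13 to 0.42 for NDUFA7, and the widest intervals belong to genes with few counts.

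The absence of calls came with narrow errors for most genes. The median standard error of the log2 fold change was 0.063 for the respiratory chain genes and 0.096 for all tested genes. The estimate lay within 10% of no change for 64 of the 72 genes. The 95% interval lay within 20% of no change for 56 genes: 35 of complex I, 3 of complex II, 7 of complex III and 11 of complex IV. The other 16 had a mean count of 514.7 or less. For the 57 genes with a mean count of at least 300, no interval reached below −16.7% or above +28.4%. In bulk RNA, fewer cells with a transcript and less of it per cell cannot be told apart.

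**Figure D2:**
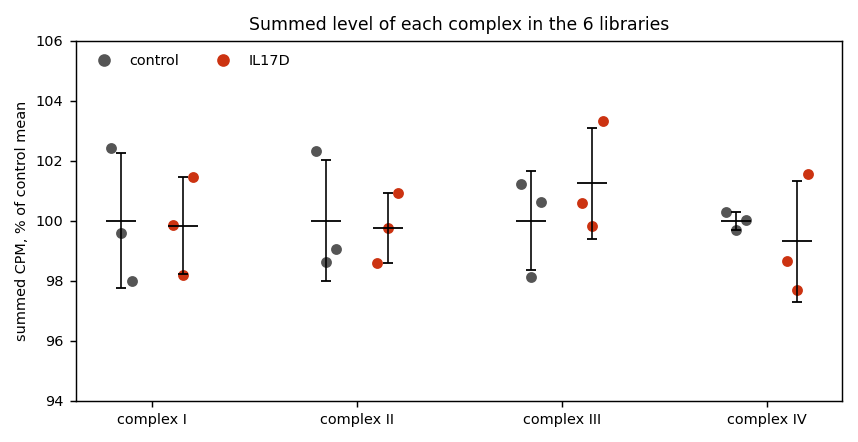
Summed CPM of each complex in the 6 libraries as a percentage of the control mean. Points are libraries, horizontal lines are group means and bars are ± 1 SD (n = 3); the axis does not start at 0, and the groups overlap in all 4 complexes.

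Complex I, the entry point for electrons from NADH, was measured most widely, with 47 of its 48 genes tested. The readthrough row NDUFC2-KCTD14 had no count. All its exon bases lie in exons of other genes on the same strand, so a count of 0 need not mean that this RNA is absent. The summed level of complex I was 2292, 2228 and 2193 CPM in control libraries and 2235, 2197 and 2270 CPM in IL17D libraries, means of 2238 ± 50.5 and 2234 ± 36.3 CPM. The median log2 fold change of the 47 was 0.0029, with 24 above and 23 below 0, and this sign turned with the scaling of the libraries, being −0.0035 with upper-quartile factors.

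The 7 core subunits of complex I, which carry the flavin and the iron-sulphur clusters, had 2 estimates above and 5 below 0, with a median of −0.047. NDUFV1, which binds NADH and the flavin, was at 128, 133 and 132 CPM in control and at 134, 124 and 136 CPM in IL17D libraries (log2 fold change 0.0029 ± 0.044 SE, adjusted p = 0.992). NDUFS1, the core subunit with several iron-sulphur clusters, was at 144, 137 and 133 CPM in control and 138, 133 and 132 CPM in IL17D libraries (−0.038 ± 0.043, adjusted p = 0.815). For both genes the groups overlapped. NDUFS8, an iron-sulphur subunit, was named after its values were seen. It stood at 128, 115 and 121 CPM in control and at 114, 115 and 113 CPM in IL17D libraries. The highest IL17D library lay just below the lowest control library, and the fold change of −0.096 ± 0.045 had an adjusted p of 0.404.

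The 30 accessory subunits of complex I, which surround the core, divided evenly, with 15 above and 15 below 0 and a median of 0.00041. The smallest p-values of the whole group were here, in subunits of the membrane arm. NDUFB3 (ENSG00000119013, chromosome 2, 201071433 to 201085750) was at 28.9, 30.8 and 31.6 CPM in control and at 35.8, 35.2 and 34.8 CPM in IL17D libraries. All 3 IL17D libraries were above all 3 control libraries, and the log2 fold change was 0.21 ± 0.072 (adjusted p = 0.160 by edgeR). NDUFB1 (ENSG00000183648, chromosome 14, 92116122 to 92121917) was at 17.4, 15.3 and 17.9 CPM in control and at 20.1, 18.9 and 23.3 CPM in IL17D libraries. The groups did not overlap here either, and the fold change was 0.29 ± 0.099 with an adjusted p of 0.169. NDUFB4 (ENSG00000065518, chromosome 3, 120596309 to 120602500), whose promoter is printed above, went the other way. It was at 87.5, 87.0 and 78.8 CPM in control and at 68.8, 80.6 and 79.5 CPM in IL17D libraries, so that control replicate 3 lay below 2 of the IL17D libraries (−0.15 ± 0.057, adjusted p = 0.265). These 3 subunits of the membrane arm had estimates of both signs, and none passed the adjusted threshold.

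**Figure D3:**
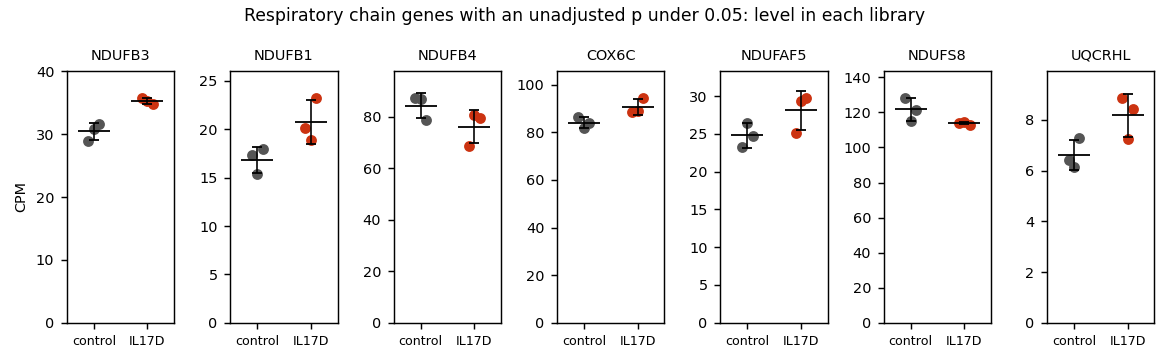
Level in each library of the 7 respiratory chain genes with an unadjusted p under 0.05, ordered by p. Points are libraries (CPM, axes from 0), horizontal lines are group means and bars ± 1 SD (n = 3); 5 genes are higher and 2 lower in IL17D cells, and their adjusted p-values run from 0.160 to 0.417.

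The highest and the lowest estimate in complex I belonged to genes with few counts. NDUFA7 had 8, 11 and 9 counts in control and 19, 10 and 9 counts in IL17D libraries, and its log2 fold change of 0.42 had a standard error of 0.46 (adjusted p = 0.813). A single library, IL17D replicate 1, was high. NDUFA13, a subunit also known as GRIM-19, had 50, 41 and 54 counts in control and 61, 31 and 37 counts in IL17D libraries (−0.18 ± 0.25, adjusted p = 0.863). NDUFS5, the gene of complex I with the highest level per length, was at 99.7, 101 and 100.5 CPM in control and 96.9, 95.2 and 96.5 CPM in IL17D libraries. Its groups did not overlap, but the difference was small (−0.062 ± 0.045, adjusted p = 0.676).

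The 8 assembly factors of complex I had 6 estimates above and 2 below 0 and a median of 0.024. NDUFAF5, an arginine hydroxylase that acts on NDUFS7, was at 23.2, 26.5 and 24.7 CPM in control and at 25.1, 29.4 and 29.8 CPM in IL17D libraries, which overlap (0.18 ± 0.085, adjusted p = 0.402). NDUFAF8, which works with NDUFAF5, was at 66.7, 65.2 and 56.8 CPM in control and at 66.7, 66.8 and 67.6 CPM in IL17D libraries. Control replicate 3 was the low library, and the estimate was 0.092 ± 0.058 (adjusted p = 0.601). NDUFAF3, an assembly factor of the peripheral arm, had the lowest estimate, −0.080 ± 0.065 (44.3 ± 1.97 CPM in control and 41.9 ± 1.69 CPM in IL17D cells, adjusted p = 0.711).

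Complex II links the chain to the citric acid cycle and is coded by the nuclear genome alone. Its summed level was 358, 345 and 347 CPM in control and 345, 349 and 353 CPM in IL17D libraries (349.9 ± 7.03 and 349.0 ± 4.07 CPM). SDHA, the flavoprotein that oxidises succinate, was at 166, 163 and 162 CPM in control and at 159, 160.3 and 156 CPM in IL17D libraries. Its groups did not overlap, with an estimate of −0.050 ± 0.039 and an adjusted p of 0.701. Of the distinct 31-base stretches in the principal transcript of SDHA, 41.8% also occurred in 1 or more of 5 other genes. The effect on its counts was not tested. SDHB, the iron-sulphur subunit, was at 60.2, 52.1 and 55.0 CPM in control and at 58.4, 55.8 and 63.4 CPM in IL17D libraries (0.082 ± 0.062, adjusted p = 0.684). Of the 2 membrane anchors, SDHC was the steadiest, at 104, 104 and 104 CPM against 102, 105 and 103 CPM (−0.011 ± 0.045, adjusted p = 0.966). SDHD, the other anchor, was at 27.1, 26.5 and 25.7 CPM in control and at 25.8, 28.4 and 31.5 CPM in IL17D libraries (0.11 ± 0.083, adjusted p = 0.687).

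Complex III summed to 984, 954 and 978 CPM in control and to 977, 969.9 and 1004 CPM in IL17D libraries (972 ± 16.0 and 984 ± 17.9 CPM, a difference of 1.25%). Of its 9 genes 7 were above and 2 below 0, with a median of 0.033. UQCRFS1, the Rieske iron-sulphur protein, was at 223, 215 and 209 CPM in control and at 219.8, 216 and 227 CPM in IL17D libraries (0.033 ± 0.038, adjusted p = 0.821). UQCRC1, a core protein of the matrix side, was at 153, 146 and 142 CPM in control and at 155, 140.3 and 146 CPM in IL17D libraries (0.0063 ± 0.044, adjusted p = 0.983). The groups overlapped in both. UQCRB, the ubiquinone-binding protein, had the lowest estimate of the complex, −0.019 ± 0.046 (120.2 ± 4.98 and 119 ± 6.06 CPM, adjusted p = 0.931).

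UQCRHL had the highest estimate in complex III and is a near copy of UQCRH, the hinge protein that aids the contact with cytochrome c. UQCRHL was at 6.40, 6.15 and 7.27 CPM in control and at 8.88, 7.24 and 8.41 CPM in IL17D libraries, so that IL17D replicate 2 overlapped with control replicate 3. Its log2 fold change was 0.30 ± 0.15 (adjusted p = 0.417). UQCRH, on the same chromosome, was at 113, 111 and 112 CPM in control and at 120.1, 112 and 114 CPM in IL17D libraries (0.043 ± 0.045, adjusted p = 0.792). The coding sequences of the 2 genes are both 273 bases long in GENCODE 29 without the stop codon. They are shown because a read within them may match both genes. They are only part of the transcripts, which are 604 bases long for UQCRH and 2180 for UQCRHL. Capitals mark the 4 bases at which the coding sequences differ.
UQCRH: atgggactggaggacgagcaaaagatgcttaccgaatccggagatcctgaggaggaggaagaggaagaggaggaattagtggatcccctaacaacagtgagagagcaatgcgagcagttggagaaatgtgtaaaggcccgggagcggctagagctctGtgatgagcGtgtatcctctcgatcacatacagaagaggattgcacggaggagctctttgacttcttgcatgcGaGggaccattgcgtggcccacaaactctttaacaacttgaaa
UQCRHL: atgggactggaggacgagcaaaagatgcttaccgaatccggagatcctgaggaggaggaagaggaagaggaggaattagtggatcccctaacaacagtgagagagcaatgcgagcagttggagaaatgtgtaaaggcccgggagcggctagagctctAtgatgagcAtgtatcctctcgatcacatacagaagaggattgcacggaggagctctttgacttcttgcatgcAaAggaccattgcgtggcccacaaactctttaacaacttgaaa
The identity was 98.5% and the longest identical run was 157 bases. Of the distinct 31-base stretches in the principal transcript of UQCRH, 43.9% also occurred in another gene, most often UQCRHL, with 4 genes sharing any. For UQCRHL the share was 20.7%, but it was spread over 2239 genes, of which UQCRH shared most. The value of UQCRHL is therefore uncertain. Whether reads of the abundant gene were counted on its copy was not tested.

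Complex IV summed to 1199, 1192 and 1196 CPM in control and to 1180 CPM in IL17D replicate 1, 1168 CPM in replicate 2 and 1214 CPM in replicate 3 (1196 ± 3.65 and 1187 ± 24.2 CPM, a difference of −0.69%). Of its 12 tested genes 2 were above and 10 below 0, with a median of −0.023. COX4I1, the regulatory subunit 4 in its ubiquitous form, was at 247, 241 and 249 CPM in control and at 241, 239.7 and 243 CPM in IL17D libraries (−0.027 ± 0.036, adjusted p = 0.848). COX5A was the smaller of the 2 estimates above 0 (0.027 ± 0.045, adjusted p = 0.886) and COX6C, a small membrane subunit, the larger. COX6C was at 86.4, 81.8 and 83.8 CPM in control and at 88.6, 89.2 and 94.6 CPM in IL17D libraries. The groups did not overlap, and the estimate was 0.11 ± 0.049 (adjusted p = 0.361). COX7C and COX5B, 2 other nuclear subunits, were at 151 ± 5.08 and 77.4 ± 2.31 CPM in control and at 146 ± 7.77 and 75.2 ± 1.92 CPM in IL17D cells, with adjusted p-values of 0.762 and 0.839.

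Some subunits of complex IV exist in a general and a tissue-restricted form, and A549 cells held almost only the general forms. The 11 genes listed as general had mean levels of 40.3 to 243.7 CPM. COX6A2 of heart and skeletal muscle and COX7B2 had no count in any library, against 40.8 ± 3.98 CPM for COX6A1 and 80.5 ± 6.48 CPM for COX7B in control cells. COX4I2, the form of subunit 4 known from lung and from cells in low oxygen, had 1 count, in control replicate 3. COX8C had 2 counts, both in IL17D replicate 3, beside COX8A at 90.3 ± 10.3 and 89.0 ± 9.30 CPM. COX6B2, known from testis, had 4, 6 and 3 counts in control and 3, 12 and 4 counts in IL17D libraries, beside COX6B1 at 129 ± 6.02 and 126 ± 0.652 CPM. Of the principal transcript of COX6B2, 37.0% lay in exons of another gene on the same strand. Its part in the low counts was not tested. COX7A1, the form of heart and muscle, was the only restricted form that could be tested. It had 23, 37 and 11 counts in control and 21, 26 and 18 counts in IL17D libraries (−0.16 ± 0.37, adjusted p = 0.931), beside COX7A2 at 75.7 ± 3.39 and 75.5 ± 1.51 CPM. In every library of both groups the general form was the higher of the pair.

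NDUFA4 and its paralogue NDUFA4L2, a gene known to be induced in low oxygen differed in level in the same way in both groups. NDUFA4 was at 133, 127 and 126 CPM in control and at 122, 128 and 121 CPM in IL17D libraries (−0.060 ± 0.043, adjusted p = 0.671). NDUFA4L2 had 13, 24 and 10 counts in control and 16, 18 and 15 counts in IL17D libraries, about 1 CPM in each group (0.036 ± 0.41, adjusted p = 0.990).

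Levels can be compared between genes only per length, here as CPM per kilobase of the principal transcript in GENCODE 29. Within each complex the genes covered a wide range. The ranges include genes that are not general subunits of the complex: assembly factors, NDUFA4L2, the near copy UQCRHL and the tissue form COX7A1. In complex I the level per kilobase ran from 179 for NDUFS5 to 0.87 for NDUFA4L2, with NDUFA7 the lowest subunit at 1.17. Among the 8 assembly factors it ran from 106 for NDUFAF8 to 4.78 for NDUFAF5. In complex II it ran from 67.4 for SDHA and 49.9 for SDHB to 19.1 for SDHD and 7.63 for SDHC, a ratio of 8.83 from top to bottom. In complex III the highest was UQCRH at 188 and the lowest UQCRHL at 3.39, and without UQCRHL the lowest was UQCR11 at 16.1. The core genes UQCRC1 (74.0), UQCRC2 (65.9) and UQCRFS1 (62.8) were close to one another. In complex IV the level ran from 279 for COX4I1 to 1.92 for COX7A1. The lowest of the genes listed as general was COX7A2L at 27.5, with COX7B next at 32.5. The order depends on the transcript taken as principal. With the gene length printed in the deposited table, NDUFS8 stood at 26.0 instead of 149 per kilobase and SDHA at 19.2. SDHB then led complex II at 23.3 and SDHC was at 7.31, so the ratio of 8.83 depends on that choice too.

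**Figure D4:**
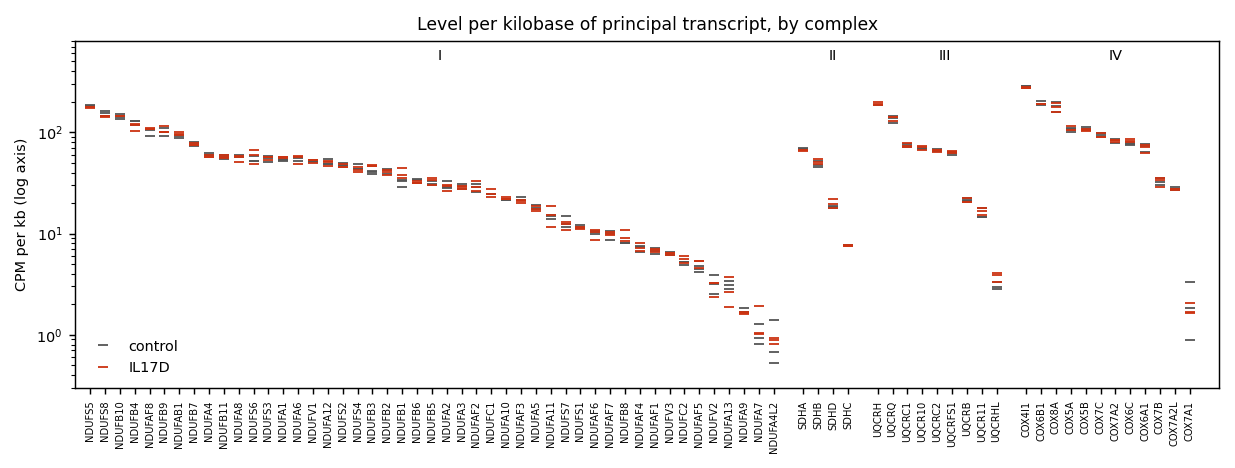
Level per kilobase of principal transcript (CPM per kb, log axis) of the tested genes, in order within complexes I to IV. Each dash is 1 library, grey for control and red for IL17D; the libraries of both groups lie on top of one another for most genes while the genes span 279 to 0.87 CPM per kb.

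Some low levels in complex I belonged to subunits that overlap another annotated gene. In 5 subunits, over 40% of the principal transcript lay in exons of another gene on the same strand: NDUFV2 (82.9%, AP005263.1), NDUFA7 (75.9%, AC010323.1), NDUFB8 (71.7%, AL133352.1), NDUFA11 (67.0%, AC024592.3) and NDUFA13 (44.1%, AC011448.1). Their mean levels were 1.17 to 14.9 CPM per kilobase. The other 32 subunits of complex I ran from 1.69 to 179 CPM per kilobase, with a median of 45.5. All 5 were among the 10 lowest of the 37 subunits, together with 5 that do not overlap to this extent (NDUFA9, NDUFC2, NDUFV3, NDUFS1 and NDUFS7). This rank depends on transcript length. NDUFS1 had the highest CPM of the other subunits, 136.1, over a principal transcript of 11819 bases. NDUFA9, NDUFC2 and NDUFS7 were low in CPM as well, with group means of 12.5 to 14.5, and NDUFV3 was at 29.4 to 29.8. NDUFV2 codes for a core iron-sulphur subunit and was at 3.63, 2.35 and 2.92 CPM in control and 3.04, 2.19 and 3.01 CPM in IL17D libraries, whereas NDUFV1, which sits beside it in the complex, had a mean of 131 CPM in both groups. Per kilobase the means over the 6 libraries were 3.07 for NDUFV2 and 51.9 for NDUFV1. The overlapping genes themselves had mean counts of 0 to 16.2. In 3 further genes (NDUFA1, NDUFB2 and NDUFB11) over 40% of the transcript overlapped a gene on the opposite strand only, and these stood at 40.7 to 57.1 CPM per kilobase. The next highest same-strand overlaps of tested genes were in complex IV and did not go with low levels. COX8A (34.5%) stood at 177 and COX6A1 (30.6%) at 70.5 CPM per kilobase. Of the genes that could not be tested, the readthrough NDUFC2-KCTD14 overlapped by 100% and had no count. COX6B2 overlapped by 37.0% and had 3 to 12 counts per library. How reads in overlapping exons were counted is not given in the sources used here, and its part in the low levels was not tested. The 40% limit was chosen after the values were seen, and the levels of these 5 genes are uncertain.

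**Figure D5:**
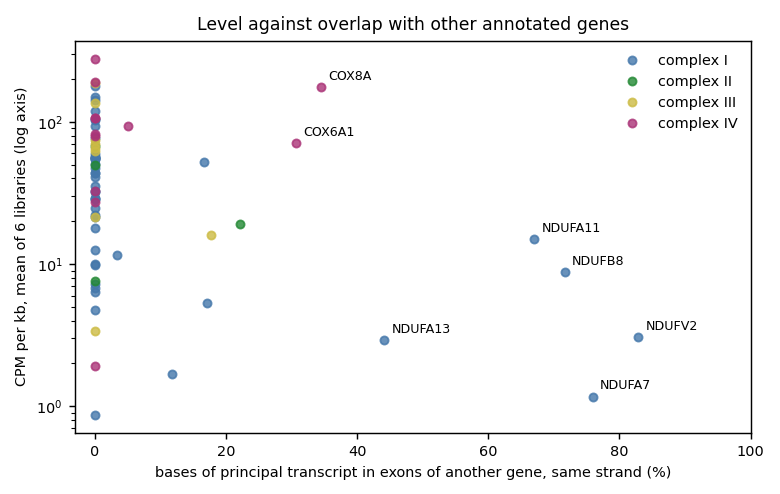
CPM per kilobase of principal transcript, mean of the 6 libraries (log axis), against the percentage of the principal transcript that lies in same-strand exons of another gene, for the tested genes, coloured by complex. NDUFV2, NDUFA7, NDUFB8, NDUFA11 and NDUFA13 lie past 40% on the x axis and between 1.17 and 14.9 CPM per kilobase.

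Respiratory chain genes also have many processed pseudogenes. Of 109 pseudogene rows of any type named after genes of complexes I, III and IV, 42 had a count. Of these, 4 were tested with edgeR, none with a call (lowest adjusted p = 0.777). The name search did not reach pseudogenes of the SDH genes, so complex II was not covered. Together the 109 rows held 1737 counts, 0.387% of the counts on all the respiratory chain genes and these pseudogenes.

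The highest and the lowest library of a gene were found in both groups. Of the 72 tested genes, control replicate 1 was the highest library for 22 and IL17D replicate 3 for 16, while IL17D replicate 2 was the highest for 5 and the lowest for 20. The median deviation of the genes from their mean ran from −0.017 in control replicate 3 to 0.038 in IL17D replicate 3 on the log2 scale. Without control replicate 1 the median fold change of the 72 was 0.016, and without IL17D replicate 3 it was −0.017.

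Other genes of the pathway were taken from lists written for this comparison. Of 40 tested genes for the remaining chain components and assembly factors, 0 were called, with 16 above and 24 below 0 (edgeR, with 2 higher and 2 lower at an unadjusted p under 0.05). TTC19, a complex III factor, had the smallest p, at 66.4 CPM in control and 60.9 CPM in IL17D cells (−0.12, adjusted p = 0.362). Of 20 tested genes of complex V, the ATP synthase, 0 were called and 1 had an unadjusted p under 0.05: ATP5MC3, a gene for the membrane c subunit, at 201 and 214.5 CPM (0.094, adjusted p = 0.320). Of 14 tested regulators of mitochondrial biogenesis, 0 were called, including at an unadjusted p under 0.05, with 9 above and 5 below 0. The groups did not overlap for 4 that were higher (7.48% of all tested genes) and 0 that were lower (8.31% of all). POLG, the mitochondrial DNA polymerase, came nearest to a call (124 and 132 CPM, edgeR adjusted p = 0.481).

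The 13 protein genes of the mitochondrial genome, whose products join the nuclear ones in complexes I, III, IV and V, were measured in the same libraries, where all rows of that genome took 6.85% to 7.36% of the counts. The sum of the 13 was 58052 ± 2106 CPM in control and 59083 ± 2227 CPM in IL17D cells, and 12 of the 13 estimates were above 0 (49.9% of all tested genes were), with a median of 0.047. None was called by edgeR, and 3 were higher at an unadjusted p under 0.05 (5.59% of all tested genes were). MT-ND4L, a complex I subunit gene, was at 1292, 1382 and 1624 CPM in control and at 1483, 1726 and 1622 CPM in IL17D libraries, which overlap (0.17 ± 0.047, adjusted p = 0.0656). Its call depended on the setting, since the adjusted p was 1.22e-06 when all genes with at least 1 count were kept and 2.43e-06 without control replicate 3, but 0.86 with DESeq2. Without control replicate 1 the log2 fold change was 0.10 with an adjusted p of 0.43, and without control replicate 3 it was 0.27. These 13 transcripts come from a few long precursors and are not independent of one another.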

How the data were processed

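RNA of 3 control and 3 IL17D libraries was compared. The deposited table holds counts, whole reads per gene that the authors had not normalized, with gene coordinates and lengths as the other deposited values. The submitters' processing notes name hg38 and Bowtie2 without their roles, and the counting tool and its use of strand are not given in the sources used here. The methods and the labels name different Illumina sequencers. Coordinates of all 78 respiratory chain genes were those of GENCODE 29.

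All genes were fitted together in R 4.3.3 with edgeR 4.0.16: filterByExpr (minimum count 10) kept 15754 genes, libraries were scaled by TMM (factors 0.997 to 1.004), and glmQLFTest compared the groups, two-sided, without covariates. p-values were adjusted by the Benjamini-Hochberg method over all 15754 genes at a threshold of 0.05. CPM are TMM-scaled, errors of levels are SD and errors of log2 fold changes are SE. Alternatives were DESeq2 1.42.0, limma 3.58.1 voom, other size factors and count filters, the replicate number as a block, pseudogene counts added to their parent genes, NDUFA4 and NDUFA4L2 moved to complex IV, and each library left out. The added pseudogene counts left out pseudogenes of the SDH genes. Omitting the overlapped genes was added after seeing the data. Promoter and sequence searches and figures used Python 3.11.15. The fits were tested on simulated data.

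Named genes were, in each complex and among the complex I assembly factors, the 3 with the smallest p, the highest and lowest fold change and the highest and lowest level per length, with catalytic subunits, isoform pairs and the leading gene of each other list. NDUFS8 and the genes that overlap other genes were added after their values were seen. The genes and lists were chosen with earlier results of these data known.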

Additional observations from a re-analysis of the deposited data

How the results depend on the processing

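No respiratory chain gene was called under any alternative, and the lowest adjusted p ran from 0.0858 without control replicate 3 to 0.353 with DESeq2. At an unadjusted p under 0.05, DESeq2 gave 3 higher and 1 lower. With each library left out in turn, those higher numbered 1 (without IL17D replicate 3) to 6. Those lower numbered 0 (without control or IL17D replicate 1) to 1. In these fits the groups did not overlap for 8 to 14 genes that were higher and 4 to 7 that were lower. Groups of 2 and 3 libraries overlap less often by construction. The share of all tested genes was not counted for these fits, so these numbers have no background and show no gain. The median of all 72 ran from −0.017 (without IL17D replicate 3) to 0.016 (without control replicate 1). Calls among all genes numbered 69 to 129 higher and 76 to 138 lower (69 and 76 without IL17D replicate 3), with fewer samples in each such fit. Fold changes near 0 turned sign: NDUFV1 was −5.0e-05 with total counts and −0.0035 with upper-quartile factors, UQCRC1 was −0.00026 with upper-quartile factors, and COX7A1 was 0.040 with limma voom. With a library left out, the ranges that crossed 0 were NDUFV1 −0.020 to 0.041, NDUFA13 −0.47 to 0.035, NDUFA4L2 −0.23 to 0.54, UQCRC1 −0.033 to 0.041, UQCRB −0.060 to 0.016, COX6A1 −0.11 to 0.050, COX6B1 −0.055 to 0.0085, COX7A1 −0.52 to 0.39, COX7A2 −0.040 to 0.018, COX7B −0.066 to 0.075 and COX8A −0.10 to 0.059; none was called, and the cause was not tested. Of 584 values of named genes under alternatives, 548 kept their direction and their side of the threshold. The medians of complexes II and III stayed above 0 and that of complex IV below 0 under every alternative run, while that of complex I changed sign and was −0.0016 without the overlapped genes.

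The replicate numbers did not pair the libraries: the correlations of deviations for the same number were 0.071, −0.11 and −0.067. The largest correlation was 0.20, between control replicate 3 and IL17D replicate 2, which have different numbers. Both also had the highest mitochondrial share of counts in their group (7.25% and 7.36%). What they have in common was not tested, and a block by number does not account for it. With the number as a block, 0 respiratory chain genes were called (lowest adjusted p = 0.131), 115 genes were higher and 157 lower among all genes, and MT-ND4L reached an adjusted p of 0.000349. MT-ND4L was also called without IL17D replicate 1 (adjusted p = 0.0101) and was not without IL17D replicate 2 (0.326) or with limma voom (0.0565). Depth limits the 15 tested genes with under 300 counts on average, and the 6 untested ones give no fold change.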
